A study of Bos taurus with 16 samples.

Results

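IGF2, H19, IGF2R, PEG3, PEG10, MEST, SNRPN, NNAT, PLAGL1 and GRB10 are imprinted genes with roles in fetal and placental growth or in the neural and RNA-processing functions linked to the same gene clusters. They were picked by name, and all 10 were listed in each table of single blastocysts (of 38959 and 37429 genes) and 9 in the table of bovine embryonic stem cells (bESCs, of 28303 genes), where no row carried the name H19. The series holds 16 wild-type cattle libraries that compare embryos or bESCs exposed to LY2955303 (LY), an inhibitor of retinoic acid receptor gamma, with vehicle or control medium. In the first blastocyst table, 3 single in vitro fertilized blastocysts were raised in DMSO (group DMSO) and 3 in 10 μM LY (group LY10), which the methods describe as given from the 2-cell stage. In the second, 2 blastocysts received LY from the 2-cell stage (cell2_LY), 2 from the 16-cell stage (cell16_LY) and 2 the vehicle (LY_DMSO), and the labels give no dose. The bESC table has 2 libraries of cells in TiFX medium (bESC_tifx, replicates 2 and 3) and 2 with LY (bESC_LY, replicates 2 and 3), all grown on mitotically inactivated mouse fibroblasts. The labels name the control only as TiFX, whereas the paper calls it a DMSO control and gives LY as 10 μM for 3 days.

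An imprinted gene is transcribed mainly from the maternal or mainly from the paternal copy, according to DNA methylation laid down in the germ line and kept through the wave of demethylation before implantation. IGF2 is a paternally expressed growth factor, H19 the maternally expressed noncoding RNA next to it, IGF2R the receptor that clears IGF2, and GRB10 an adaptor that restrains insulin and IGF signalling. In cattle, imprinted genes are of interest because in vitro culture of embryos can disturb them and lead to overgrown calves. Allele-specific reads were not analysed here, so the values are total RNA levels of both copies.

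By the positions in the blastocyst tables, which equal those of the RefSeq assembly ARS-UCD2.0 for 10 of 10 members, chromosome 4 carries GRB10 (5105712 to 5327049), PEG10 (12063954 to 12076659) and MEST (94250838 to 94263783). Chromosome 9 carries PLAGL1 (81363243 to 81419573) and IGF2R (96197493 to 96300019). NNAT lies on chromosome 13 (66465154 to 66467548), PEG3 on chromosome 18 (64099192 to 64122748) and SNRPN on chromosome 21 (1937668 to 1961040). IGF2 (49395153 to 49422472) and H19 (49510998 to 49513370) are neighbours on chromosome 29. Several share ground with a gene on the other strand. BLCAP overlaps NNAT, AIRN overlaps IGF2R, COPG2 overlaps MEST, APEG3 overlaps PEG3 and ZC2HC1B overlaps PLAGL1. Whether reads were counted by strand is not given in the sources used here, so reads in the shared stretches cannot be assigned with certainty. SNURF, which shares its span with SNRPN on the same strand, had 0 reads in every blastocyst, and reads common to both models may have been given to either.

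The libraries had 7905768 to 15137567 reads on genes in the first blastocyst table, 11336091 to 17343140 in the second and 29055323 to 31230432 in the bESC table. The trophectoderm gene KRT8 was at 1582 to 6493 FPKM (reads per length of gene, at equal depth) in the blastocysts, and the pluripotency gene POU5F1 at 164 FPKM or more, against 967 to 1117 FPKM for POU5F1 in bESCs. Reads on Y-linked genes (DDX3Y, USP9Y, ZFY and EIF1AY) were present in 2 of 6 blastocysts of the first table, DMSO replicate 3 and LY10 replicate 1. They were present in 4 of 6 of the second, namely LY_DMSO replicate 1, cell16_LY replicate 2 and both cell2_LY libraries.

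SNRPN, which encodes a protein of the spliceosome, was the most abundant member in blastocysts, with a median of 42.9 FPKM over 12 embryos. It was followed by IGF2R (3.77), GRB10 (3.63), NNAT (1.90), PEG3 (1.26) and MEST (0.582). PLAGL1, a zinc finger transcription factor that acts on other imprinted genes, had a median of 0.0944 FPKM and PEG10, a retrotransposon-derived gene needed for the placenta, 0.0574 FPKM. The ranges of neighbours in this order overlapped in each case, with IGF2R at 2.56 to 5.93 FPKM and GRB10 at 2.43 to 7.86 FPKM. IGF2 and H19 were close to silent. IGF2 had 1 read each in DMSO replicates 2 and 3 and 0 in the other 10 blastocysts. H19 had 10 reads in DMSO replicate 3 (0.502 FPKM) and 0 in the other 11. Both stayed below a mean of 10 normalized counts and were not tested in blastocysts.

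The bESC libraries, made with another kit and counted on Ensembl gene models, are set beside these only as levels, with no test. NNAT, a small membrane protein of the developing nervous system, had a median of 1170 FPKM over the 4 bESC libraries, SNRPN 164 FPKM and PEG10 97.5 FPKM. MEST, a mesoderm-expressed hydrolase family gene, was at 18.8 FPKM, GRB10 at 15.2, PEG3, a zinc finger gene of placenta and brain, at 14.2, IGF2R at 10.5, PLAGL1 at 7.35 and IGF2 at 1.17 FPKM. All 9 listed members were detected in all 4 bESC libraries. PEG10 thus ranked low among the members in blastocysts and high in bESCs. An unnamed lncRNA model of the bESC table (ENSBTAG00000054745, chromosome 29, 49510742 to 49513379) spans 100% of the H19 interval and had 174 and 260 reads in the bESC_LY libraries and 295 and 305 in the bESC_tifx libraries. The build of the bESC table is not given in the sources used here, and its 9 member positions differed from ARS-UCD2.0 by at most 11991 bases, so this match was read from coordinates only.

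**Figure D1:**
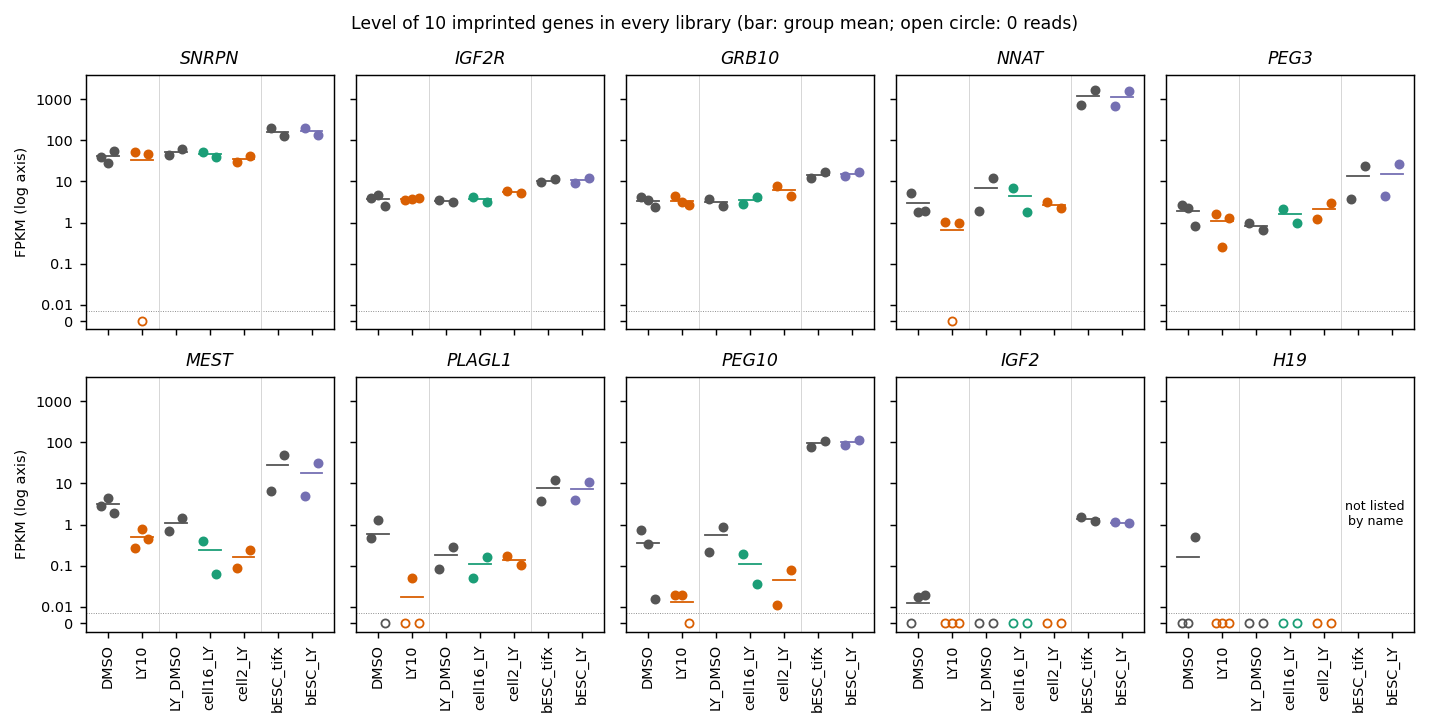
FPKM (log axis) of the 10 members in each of the 16 libraries, by group; bars are group means (n = 3 for DMSO and LY10, n = 2 otherwise), open circles mark 0 reads, and vertical lines separate the 3 tables. IGF2 and H19 lie at or near 0 in blastocysts, and NNAT and PEG10 reach 1726 and 115 FPKM in bESCs.

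MEST was lower in blastocysts raised in LY. It had 2.91, 4.55 and 1.88 FPKM in DMSO replicates 1 to 3 and 0.266, 0.760 and 0.455 FPKM in LY10 replicates 1 to 3. The groups did not overlap. The mean was 3.11 ± 1.34 FPKM (SD, n = 3) in DMSO and 0.494 ± 0.249 FPKM in LY10, and limma on log2(normalized count + 1) gave a log2 fold change of -2.58 (SE 0.59, unadjusted p = 0.00186, adjusted p = 0.0786). A normalized count is the number of reads scaled to the same library size. The threshold used throughout, after the study's methods, was an unadjusted p below 0.05 with an absolute log2 fold change above 1. MEST passed it without any 1 of the 6 libraries, with log2 fold changes from -2.92 to -2.24.

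NNAT had 5.20, 1.85 and 1.87 FPKM in DMSO and 1.02, 0 and 0.964 FPKM in LY10, again without overlap. Of all tested genes, 14.4% were lower in LY10 without overlap. Its log2 fold change was -2.63 (SE 1.13, unadjusted p = 0.0453, adjusted p = 0.208). The call was lost without DMSO replicate 1 (-2.12), 2 (-2.87) or 3 (-2.87) and without LY10 replicate 2 (-1.34), the blastocyst with 0 NNAT reads. So 2 of 8 tested members fell, MEST and NNAT, where 14.7% of the 14249 tested genes passed in either direction and 8.51% were lower. No member passed an adjusted p of 0.05, which 2 genes (0.014%) of all tested did. The median log2 fold change was -2.61 over the 8 members and -0.05 over all tested genes. The members' median was -0.78 without LY10 replicate 2 and -1.41 without DMSO replicate 1 (6 members tested), so it rested in large part on single libraries, and without any other 1 library it was -2.72 to -2.27.

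PEG10 and PLAGL1 were divided within the DMSO group. PEG10 had 67, 23 and 1 reads in DMSO and 1, 2 and 0 in LY10. PLAGL1 had 24, 50 and 0 reads in DMSO and 0, 3 and 0 in LY10. DMSO replicate 3, the control with reads on Y-linked genes, lay among the LY10 blastocysts for both genes, and the part of those reads in the result was not tested. Over the group, the ratio of DMSO to LY10 at equal library size was 28.4 for PEG10 (95% counting interval 9.40 to 140) and 23.1 for PLAGL1 (7.59 to 114), intervals that hold counting error only. In the fit neither passed (PEG10 -2.97, SE 1.48, adjusted p = 0.267; PLAGL1 -2.79, SE 1.75, adjusted p = 0.365). Without DMSO replicate 3 both passed, at -4.35 and -4.47.

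PEG3 had 2.67, 2.22 and 0.817 FPKM in DMSO and 1.61, 0.262 and 1.32 FPKM in LY10. The groups overlapped and the log2 fold change was -1.03 (SE 0.71, adjusted p = 0.412). Without LY10 replicate 2 it was -0.22. IGF2R and GRB10 gave the smallest differences. IGF2R had a mean of 3.67 ± 1.03 FPKM in DMSO and 3.72 ± 0.174 FPKM in LY10 (SD, n = 3), a log2 fold change of 0.06 (SE 0.28, adjusted p = 0.922). GRB10 had 3.35 ± 0.853 and 3.40 ± 0.857 FPKM, a log2 fold change of 0.02 (SE 0.33, adjusted p = 0.974). The direction of GRB10 changed with quantile normalization, voom weights and some left-out libraries, and that of IGF2R with quantile normalization and without DMSO replicate 3.

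The summed level of 12 fibroblast markers was 51.7 to 109 FPKM in DMSO and lower in LY10, at 8.76 to 16.1 FPKM. Of 7 tested markers 4 were lower past the threshold, beside 8.51% of all tested genes. LUM (up to 80.1 FPKM) and S100A4 (up to 70.7 FPKM) reached the highest values of the list. PRRX1 was at 0 in all 6 blastocysts and POSTN in 4 of 6. COL3A1, COL5A1 and COL1A1 reached at most 0.11, 0.16 and 0.51 FPKM. The 8 of 10 epiblast markers listed summed to 200.2 to 323.2 FPKM in DMSO and to a higher level in LY10, 389.4 to 776.4 FPKM. POU5F1, at 164 to 611 FPKM over the 6 blastocysts, made up most of this sum. Over 7 tested epiblast markers the median log2 fold change was 0.85. Past the threshold 1 of them was higher, beside 6.2% of all tested genes. All 6 blastocysts had reads on at least 7 of the 8 epiblast markers listed. The ranges of the summed trophectoderm markers (3213 to 7911 and 4634 to 10680 FPKM) and hypoblast markers (82.05 to 151.1 and 84.4 to 127.7 FPKM) overlapped. Past the threshold, 2 of 8 tested hypoblast markers were higher and 0 lower, and 1 of 13 tested trophectoderm markers was lower and 0 higher. Of all tested genes, 6.2% were higher and 8.51% lower. The part of these markers in the lower MEST and NNAT levels was not tested. Single blastocysts hold trophectoderm, epiblast and hypoblast together, and fewer cells of a type cannot be told apart from less RNA per cell. Among the 4 blastocysts with no reads on Y-linked genes, a selection added after the data were seen, 5 of 8 members passed, namely MEST, NNAT, PEG10 (-4.64), PLAGL1 (-4.28) and PEG3 (-2.03), beside 21.4% of 14781 tested genes. This selection leaves out DMSO replicate 3, the lowest control for MEST, PEG10, PLAGL1 and PEG3. Its count thus follows in part from values already given and adds no separate support.

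SNRPN in LY10 replicate 2 stood apart. SNRPN had 697, 391 and 707 reads in DMSO replicates 1 to 3, 547 and 497 in LY10 replicates 1 and 3, and 0 in LY10 replicate 2, which was the deepest library of the table. Against a floor of 3 reads (0.144 FPKM), the level was at least 193-fold lower than in any other blastocyst of the table, where the lowest was 27.9 FPKM. The log2 fold change was -2.80 (SE 2.15, adjusted p = 0.458), and without LY10 replicate 2 it was 0.34.

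The transcripts downstream of SNRPN on the same strand had at most 2 reads in the same embryo, a set looked at after the SNRPN value was seen. The small nucleolar RNA LOC100849023 (1964407 to 1964480) had 0 reads against 13 to 119 in the others. An unnamed transcript model at 1970657 to 1980935 had 2 reads against 905 to 1985. The lncRNA LOC100848941 (2005424 to 2138325) had 0 reads against 319 to 1175. Other genes of the Prader-Willi type cluster were present. NDN had 327 reads (80 to 423 in the others) and MKRN3 187 reads (89 to 282).

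Of 6350 genes with at least 100 normalized counts in each of the other 5 blastocysts, 5 were 50-fold or more below the lowest of them in LY10 replicate 2. They were SNRPN, LOC100848941, the unnamed model between them, CFAP54 and LOC132342100. In the other 11 blastocysts of both tables, 0 to 2 genes met the same rule.

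**Figure D2:**
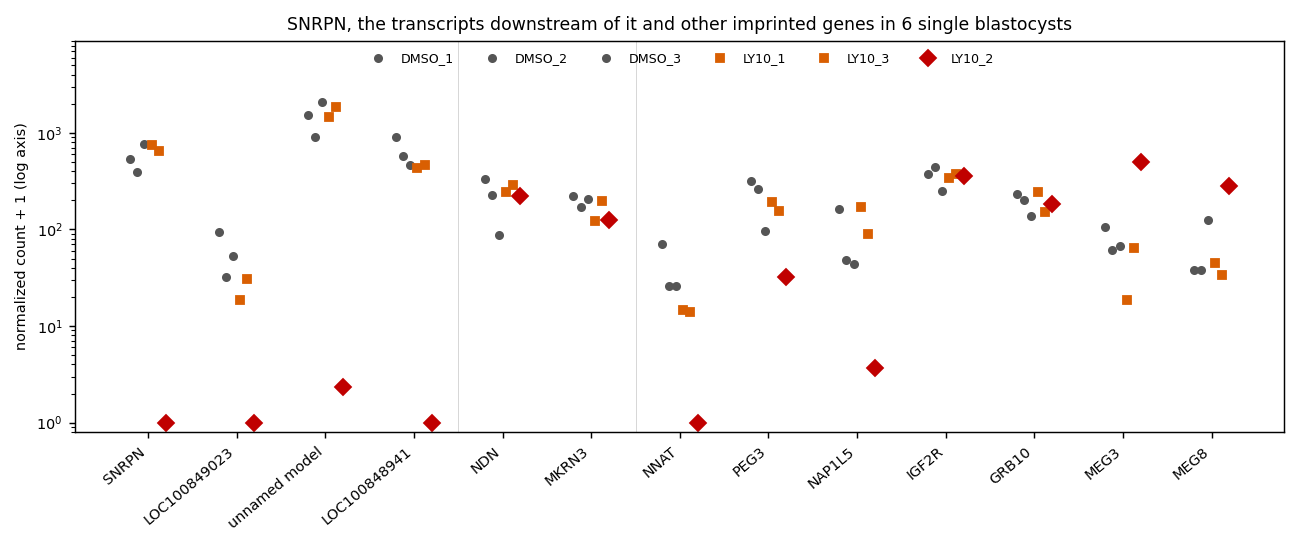
Normalized count + 1 (log axis) of SNRPN, its downstream transcripts, NDN, MKRN3 and other imprinted genes in the 6 blastocysts of the first table; each point is 1 library, and the red diamond is LY10 replicate 2. SNRPN, LOC100849023, the unnamed model and LOC100848941 are at 0 to 2 reads in that blastocyst, whereas MEG3 and MEG8 are higher there than in the other 5.

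Some other imprinted genes of this embryo lay outside the range of the other 5. NNAT had 0 reads and PEG3 46, each the lowest of the table, and NAP1L5, a nucleosome assembly protein gene, had 4 reads against 39 to 210 elsewhere. MEG3 and MEG8, noncoding RNAs, had 746 and 418 reads, against at most 136 and 115. Of 25 imprinted genes tested (members and other imprinted genes), 8 were lowest and 4 highest in LY10 replicate 2, where 18.4% and 16.2% of all tested genes were. The 8 include SNRPN itself, CDKN1C (4.69 normalized counts, against a lowest of 5.18 in the others) and INPP5F (136.8 against 174.5). Among them, GNAS (1721 normalized counts, against a lowest of 1739 in the others) and UBE3A (1540 against 1546) lay close below the range. The 4 of 25 highest, MEG3, MEG8, COPG2 and PPP1R9A, are near the share of all genes. IGF2R (355 normalized counts) and GRB10 (182) lay inside the range of the other 5. So did MEST (19.4), PEG10 (1.34), PLAGL1 (2.01), ZDBF2 (23.5) and DIRAS3 (2.68), among others. MEG3 had an outlying value in the second table too, with 1247 reads in cell2_LY replicate 1 and 16 to 281 in the other 5 blastocysts. SNRPN was present there at 30.4 FPKM.

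In the second table, MEST and PEG10 were lower in blastocysts given LY from the 2-cell stage. MEST had 0.708 and 1.46 FPKM in LY_DMSO and 0.0894 and 0.242 FPKM in cell2_LY. The groups did not overlap, and the log2 fold change was -2.56 (SE 1.12, unadjusted p = 0.0489, adjusted p = 0.200). PEG10 had 0.215 and 0.875 FPKM in LY_DMSO and 0.0110 and 0.0795 FPKM in cell2_LY, a log2 fold change of -3.36 (SE 1.25, unadjusted p = 0.0257, adjusted p = 0.154). Both changes rest on few reads. MEST reached the minimum mean of 10 normalized counts only through LY_DMSO (mean 39.8, against 6.08 in cell2_LY and 8.60 in cell16_LY). MEST had 28 and 58 reads in LY_DMSO and 3 and 9 in cell2_LY, and PEG10 23 and 94 against 1 and 8. PEG3 moved the other way, from 0.955 and 0.674 FPKM to 1.21 and 3.06 FPKM, with a log2 fold change of 1.26 (SE 0.55, unadjusted p = 0.0489, adjusted p = 0.200). Thus 3 of 7 tested members passed, 2 lower and 1 higher, beside 17% of 14529 genes (8.34% lower, 8.71% higher).

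These 3 calls rested on few embryos. Without LY_DMSO replicate 2 none of the 7 passed, and MEST was at -2.05, PEG10 at -2.37 and PEG3 at 1.01. MEST also missed the threshold without LY_DMSO replicate 1 (-3.07), cell2_LY replicate 1 (-1.96), cell2_LY replicate 2 (-3.16) or cell16_LY replicate 1 (-2.56). PEG10 missed it without cell2_LY replicate 1 (-2.32), and PEG3 without cell2_LY replicate 2 (0.59) or LY_DMSO replicate 1 (1.51). Both cell2_LY blastocysts had reads on Y-linked genes and 1 of 2 LY_DMSO blastocysts did. With the presence of such reads as a term, added after the data were seen, 0 of 7 passed (MEST -1.74, PEG10 -2.34, PEG3 1.42), beside 13.6% of all tested genes. The fibroblast markers summed to 14.4 to 21.5 FPKM in LY_DMSO and 14.3 to 20.7 FPKM in cell2_LY, so their ranges overlapped here. Trophectoderm markers moved with the 2-cell comparison. The 16 summed to 5889 and 4690 FPKM in LY_DMSO and 6338 and 9026 FPKM in cell2_LY without overlap, where 26.9% of all tested genes were higher without overlap. KRT8 (2753 to 4391 FPKM) and KRT18 (1128 to 2888 FPKM) made up most of the sums in this table. The median log2 fold change of the tested markers was 0.79. Past the threshold 5 of 15 tested were higher, beside 8.71% of all tested genes, and 0 lower. Of the 16, 15 or 16 had reads in every blastocyst of the table. The ranges of the summed epiblast markers overlapped, whereas hypoblast markers summed to 143.8 to 149.1 FPKM in LY_DMSO and 130.9 to 133.3 FPKM in cell2_LY. The part of these markers in the member results was not tested.

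IGF2R and GRB10 were higher in cell2_LY by less than the fold threshold. IGF2R had 3.57 and 3.18 FPKM in LY_DMSO and 5.93 and 5.22 FPKM in cell2_LY (log2 fold change 0.72, SE 0.28, unadjusted p = 0.0332). GRB10 had 3.72 and 2.55 FPKM against 7.86 and 4.39 FPKM (0.93, SE 0.40, unadjusted p = 0.0466). GRB10 passed the threshold without cell2_LY replicate 2 (1.35) or LY_DMSO replicate 1 (1.20). The groups did not overlap for 6 of 7 members, all but NNAT, beside 53.7% of all tested genes. SNRPN had 45.0 and 61.3 FPKM in LY_DMSO and 30.4 and 40.9 FPKM in cell2_LY (-0.57, SE 0.31, adjusted p = 0.283). NNAT had 1.93 and 12.3 FPKM against 3.12 and 2.26 FPKM (-0.87, SE 0.92, adjusted p = 0.587), its direction turned without LY_DMSO replicate 2 (0.45), and it passed without LY_DMSO replicate 1 (-2.19). PLAGL1, at 5 and 17 reads in LY_DMSO and 9 and 6 in cell2_LY, was below the filter.

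With LY from the 16-cell stage, 0 of 7 members passed, beside 5.22% of all tested genes, and 0 had an unadjusted p below 0.05 by limma, where 7.62% of all genes did. With voom weights 0 passed too. MEST had 0.406 and 0.0637 FPKM (16 and 2 reads) and PEG10 0.187 and 0.0353 FPKM (20 and 3 reads) in cell16_LY, both below the LY_DMSO values given above. The log2 fold changes were -2.40 (SE 1.12, adjusted p = 0.677) and -2.24 (SE 1.25, adjusted p = 0.724). PEG3 was at 2.20 and 0.974 FPKM, above both LY_DMSO embryos (0.86, SE 0.55, adjusted p = 0.751). IGF2R (0.13, SE 0.28), GRB10 (0.15, SE 0.40), SNRPN (-0.23, SE 0.31) and NNAT (-0.48, SE 0.92) overlapped with the control. Groups did not overlap for MEST, PEG10 and PEG3, beside 42.9% of all genes. MEST passed without cell16_LY replicate 1 (-3.52) and PEG3 without cell16_LY replicate 2 (1.45). Trophectoderm markers summed to 8115 and 6569 FPKM in cell16_LY, above both LY_DMSO blastocysts, with a median log2 fold change of 0.51. Past the threshold 3 of 15 tested were higher, beside 3.25% of all tested genes. Hypoblast markers summed to 83.08 to 119.3 FPKM, below both LY_DMSO blastocysts. The part of these markers in the result was not tested. The 16-cell and 2-cell comparisons share the same 2 control blastocysts.

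Set directly against each other, cell16_LY and cell2_LY gave 0 of 7 members past the threshold, beside 11.3% of all genes, and 0 at an unadjusted p below 0.05 by limma (17.9% of all genes), and 0 passed with voom weights. GRB10 was lower in cell16_LY by 0.78 on the log2 scale (SE 0.40, adjusted p = 0.333) and IGF2R by 0.59 (SE 0.28, adjusted p = 0.313), with no overlap of the replicates, as for 26.3% of all genes in that direction. MEST differed by 0.16 (SE 1.12, adjusted p = 0.953), an error too wide to tell the start stages apart. Without 1 library GRB10 passed, at -1.20, when cell2_LY replicate 2 was left out.

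**Figure D3:**
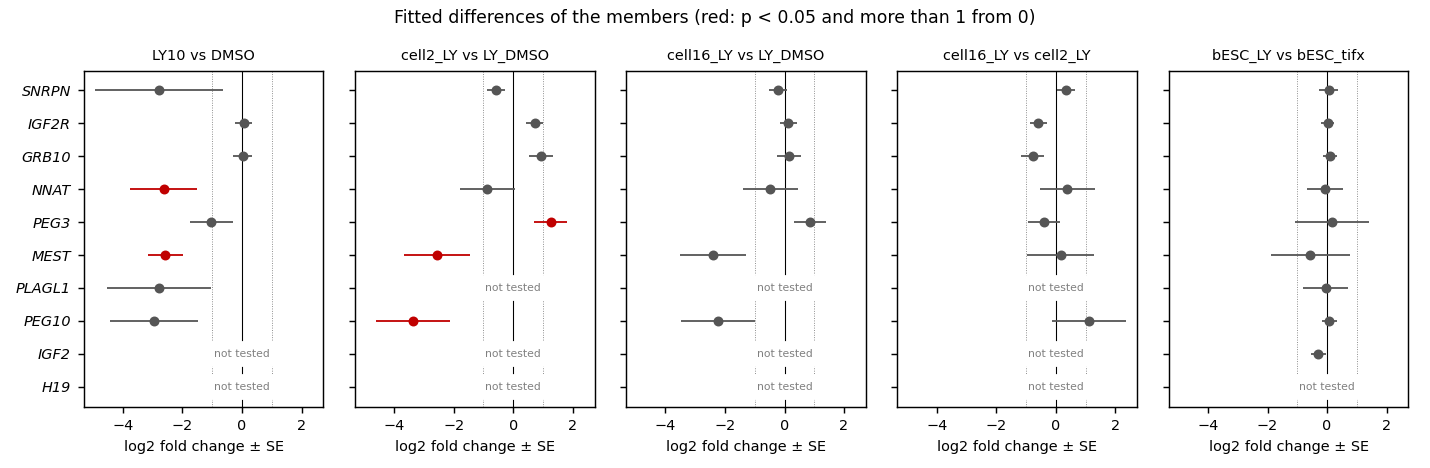
Log2 fold change (horizontal axis) with its standard error for each member in the 5 comparisons, from limma on log2(normalized count + 1); red points passed an unadjusted p of 0.05 with an absolute log2 fold change above 1, and dotted lines mark -1 and 1. MEST and NNAT pass in LY10 against DMSO, MEST, PEG10 and PEG3 in cell2_LY against LY_DMSO, and none in the other 3.

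In bESCs no member differed between LY and TiFX medium past the threshold (0 of 9, beside 0.0749% of 16012 genes), and 0 had an unadjusted p below 0.05 by limma, where 0.0999% of genes did. With voom weights 0 passed too. MEST was at 6.54 and 50.5 FPKM in bESC_tifx replicates 2 and 3 and at 4.90 and 31.0 FPKM in bESC_LY replicates 2 and 3. PEG3 was at 3.73 and 24.1 FPKM in bESC_tifx and 4.31 and 26.4 FPKM in bESC_LY. NNAT was at 718 and 1726 FPKM and at 702 and 1623 FPKM, and PLAGL1 at 3.72 and 12.2 FPKM and at 4.01 and 10.7 FPKM. In all 4 genes the libraries numbered 3 were above those numbered 2 in both groups. SNRPN ran the other way, at 197 and 126 FPKM in bESC_tifx and 203 and 132 FPKM in bESC_LY. The labels do not say what the numbers stand for.

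The fit held no term for the replicate number, so the gap between numbers is part of the errors. The genes with the wide gap had the largest errors. MEST had a log2 fold change of -0.56 (SE 1.33, adjusted p = 1), PEG3 0.17 (SE 1.26, adjusted p = 1), PLAGL1 -0.04 (SE 0.76, adjusted p = 1) and NNAT -0.06 (SE 0.60, adjusted p = 1). The other members had smaller errors. PEG10 was at 79.3 and 110 FPKM in bESC_tifx and 84.9 and 115 FPKM in bESC_LY (0.08, SE 0.25). GRB10 gave 0.10 (SE 0.23), IGF2R 0.02 (SE 0.22) and SNRPN 0.06 (SE 0.32). IGF2, with 283 and 238 reads in bESC_tifx and 203 and 217 in bESC_LY, was the member whose groups did not overlap (-0.29, SE 0.25, adjusted p = 1), where 7.36% of all tested genes were lower without overlap. Without bESC_tifx replicate 2, MEST passed the threshold at -2.03, and without bESC_tifx replicate 3 it was 0.92. Fibroblast markers summed to 114.1 to 137.5 FPKM in bESC_tifx and 107.8 to 131.6 FPKM in bESC_LY. COL1A1 was at 45.8 to 54.7 FPKM, FBLN1 at 27.3 to 39.2, THY1 at 10.0 to 18.65 and COL5A1 at 7.32 to 12.66. POSTN was at 0 in 2 of 4 libraries and S100A4 and DCN at 0 in 1 each. Trophectoderm markers summed to 452.7 and 154.3 FPKM in bESC_tifx replicates 2 and 3 and 399.9 and 140 FPKM in bESC_LY. Hypoblast markers ran the other way (25.64 and 49.1 FPKM, 24.14 and 49.81 FPKM). The part of these markers in the gap between numbers was not tested.

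Members differed in how much embryos of 1 group differed among themselves. In the first table the within-group SD on the log2 scale was 3.87 for SNRPN, 2.19 for PLAGL1, 1.79 for PEG10, 1.67 for NNAT, 1.19 for PEG3, 0.66 for MEST, 0.37 for GRB10 and 0.31 for IGF2R, and the median of all tested genes was 0.51. In the second table PEG10 had 1.46, NNAT 1.35, MEST 1.12, PEG3 0.75, GRB10 0.46, SNRPN 0.31 and IGF2R 0.19, against a median of 0.42. SNRPN thus had the widest spread of the members in the first table, where 1 embryo lacked it, and a spread below the median of all genes in the second. Counting error at these depths would give 0.28 for NNAT in the first table and 0.15 in the second. NNAT exceeded 92% of all tested genes in the first table and 92.5% in the second, and IGF2R 23.4% and 12.5%. In bESCs MEST (1.99) and PEG3 (1.88) exceeded 98.3% and 98.1% of genes, PLAGL1 had 1.11, NNAT 0.88, and IGF2 (0.18) was the lowest. Low counts widen this measure. PLAGL1, PEG10 and NNAT in the first table and PEG10 and MEST in the second lay inside the range of most genes at their own level. SNRPN in the second was close to the median of genes at its own level (0.28).

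**Figure D4:**
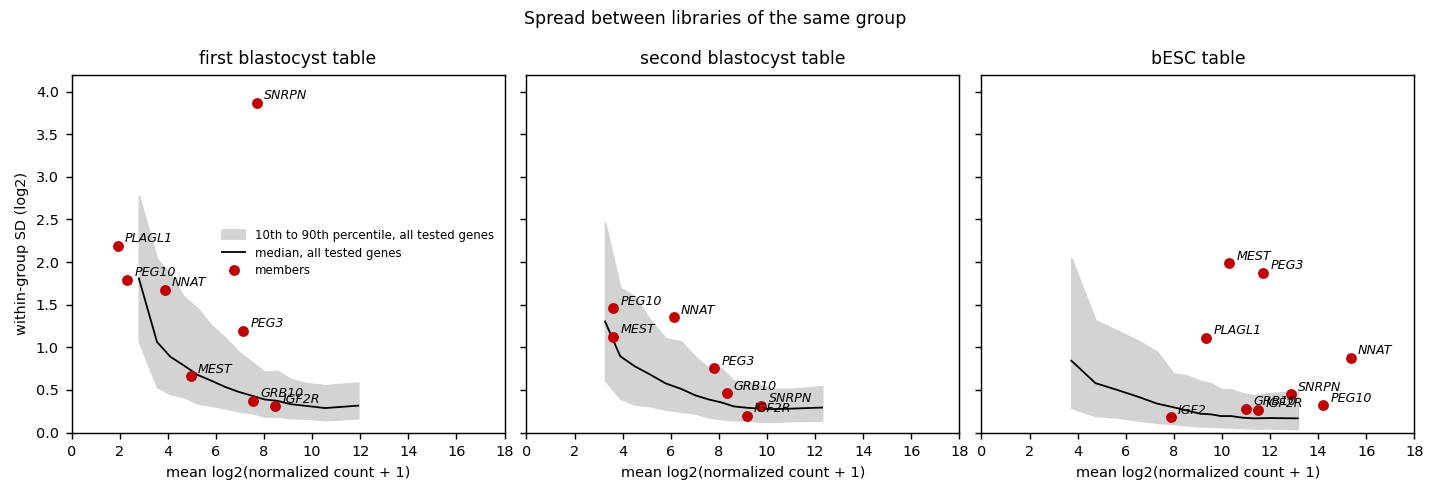
Within-group SD (log2) against the mean log2(normalized count + 1) for the members (red points) in each table, with the median (black line) and the 10th to 90th percentile (grey) of all tested genes at each level. SNRPN in the first blastocyst table and MEST and PEG3 in bESCs lie far above the grey band, and IGF2R and GRB10 within it.

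Other imprinted genes were read from a list of 37, of which 33 were listed in the blastocyst tables and 17 tested in each comparison. In LY10 against DMSO 2 fell, SFMBT2, a polycomb-related gene of the placenta (1.58, 1.42 and 0.572 FPKM against 0.484, 0.378 and 0.257 FPKM, log2 fold change -1.56, SE 0.50, adjusted p = 0.126), and DIRAS3, a growth-restraining small GTPase (24, 44 and 8 reads against 0, 4 and 1, -3.33, SE 1.12, adjusted p = 0.134). These 2 of 17 are no more than the 14.7% of all tested genes past the threshold, and the median of the 17 was -0.01. In cell2_LY against LY_DMSO, TSSC4 rose (1.44, SE 0.56, adjusted p = 0.165) and COPG2, a coat protein gene that overlaps MEST, fell (-1.03, SE 0.37, adjusted p = 0.144), 2 of 17 beside 17% of all genes, with a median of 0.87 over 17 against 0.0029 over all tested genes. In cell16_LY against LY_DMSO, TSSC4 was higher (1.30, SE 0.56, adjusted p = 0.647) and NAP1L5 lower (-1.92, SE 0.68, adjusted p = 0.609), 2 of 17 beside 5.22%. In bESCs 0 of 24 tested passed, beside 0.0749%, and 0 had an unadjusted p below 0.05. With voom weights 0 passed. Each of these calls was lost without some single library. Without DMSO replicate 1 SFMBT2 (-1.30) and DIRAS3 (-3.32) missed the threshold, and without LY_DMSO replicate 2 TSSC4 did in the 2-cell (1.16) and 16-cell (1.02) comparisons and NAP1L5 in the latter (-0.89). TSSC4 also missed it without cell2_LY replicate 1 in the 2-cell comparison (0.91), without either cell16_LY library in the 2-cell (1.44 in both) and 16-cell (1.31 and 1.28) comparisons, and NAP1L5 without either cell16_LY library (-1.85 and -1.99). COPG2 missed it at -0.87 without cell2_LY replicate 2 or LY_DMSO replicate 1.

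The other ligands of the IGF family were near 0 in blastocysts. INS had no reads in blastocysts and IGF1 at most 0.0392 FPKM. These are RNA levels of the embryos only. By the study's methods, IGF1 was added as a growth factor to the culture medium of DMSO and LY embryos alike. IGF1R, the receptor that carries IGF signals, was at 0.0859 to 0.510 FPKM in blastocysts and 4.82 to 11.9 FPKM in bESCs. Of 13 tested IGF pathway genes, the binding protein gene IGFBP3 rose in LY10 (1.73 to 4.34 FPKM in DMSO, 6.47 to 10.9 FPKM in LY10, log2 fold change 1.37, SE 0.43, unadjusted p = 0.0111, adjusted p = 0.118) and IGFBP7 fell (-2.17, SE 0.93, adjusted p = 0.208), 2 of 13 beside 14.7% of all genes. IGFBP3 missed the threshold without DMSO replicate 2 (0.95), and IGFBP7 without any 1 of 4 libraries (-2.10 to -1.67). In the second table IRS1, the docking protein of insulin and IGF receptors, and IGFBP6, which binds IGF2 by preference, were higher in both LY groups. IRS1 had 0.661 and 0.890 FPKM in LY_DMSO, 2.05 and 5.77 FPKM in cell2_LY (2.15, SE 0.52, adjusted p = 0.0814) and 2.84 and 2.15 FPKM in cell16_LY (1.67, SE 0.52, adjusted p = 0.557). IGFBP6 had log2 fold changes of 1.73 (SE 0.68, adjusted p = 0.166) and 2.79 (SE 0.68, adjusted p = 0.499). These were 2 of 13 in each comparison, beside 17% and 5.22% of all genes. IGFBP6 in cell2_LY missed the threshold without cell2_LY replicate 2 (1.26) or LY_DMSO replicate 1 (0.95), and IRS1 in cell16_LY without cell16_LY replicate 1 (1.47) or LY_DMSO replicate 1 (1.46). In the first table IRS1 had 0.820 to 1.69 FPKM in DMSO and 0.318 to 0.925 FPKM in LY10 (-1.06, SE 0.53, adjusted p = 0.267). In bESCs 0 of 16 passed, beside 0.0749%, and 0 had an unadjusted p below 0.05 by limma, and 1 passed with voom weights. The share of all tested genes with voom weights is not given here.

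All 7 genes of imprint maintenance were tested. DPPA3, a maternal factor that shields methylation marks in the zygote, fell in cell2_LY, from 197 and 230 FPKM to 83.8 and 59.4 FPKM (-1.59, SE 0.30, unadjusted p = 0.000573, adjusted p = 0.0711). ZFP57, a zinc finger protein that binds methylated imprinting control regions, rose there, from 6.80 and 4.25 FPKM to 12.6 and 11.1 FPKM (1.14, SE 0.31, adjusted p = 0.0952), and it missed the threshold without LY_DMSO replicate 2 (0.80). They were 2 of 7, beside 17% of all genes. With LY from the 16-cell stage 0 of 7 passed, beside 5.22%, 1 had an unadjusted p below 0.05 by limma and 0 passed with voom weights. The log2 fold changes there were all below 0, the one with that p being DPPA3 (-0.94, SE 0.30, adjusted p = 0.557). ZFP57 (-1.27, SE 0.31, adjusted p = 0.193) and its relative ZNF445 (-1.24, SE 0.46, adjusted p = 0.230) were lower with LY from the 16-cell than from the 2-cell stage, 2 of 7 beside 11.3% of all genes. ZNF445 missed the threshold without cell16_LY replicate 1 (-0.92) or cell2_LY replicate 1 (-0.90). In LY10, 0 of 7 passed the threshold, beside 14.7%, with TRIM28, the corepressor recruited by ZFP57, at 17.6 to 22.2 FPKM in DMSO and 31.9 to 40.7 FPKM in LY10 (0.97, SE 0.23, unadjusted p = 0.00207). In bESCs 0 of 7 passed, beside 0.0749%, 0 had an unadjusted p below 0.05 by limma, and 0 passed with voom weights.

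For the 4 members with at least 50 normalized counts in both blastocyst tables, the genes with the most similar pattern over 12 embryos, each table centred on its own mean, were read among 9296 genes as a description. They were CTSD, VEGFA and DOCK6 for IGF2R (Pearson r 0.896, 0.887 and 0.883), TAF5L, BAP1 and TENT4A for GRB10 (0.958, 0.943 and 0.932) and GALC, SLAIN2 and HEXIM1 for PEG3 (0.924, 0.908 and 0.891). For SNRPN they were CFAP54, LOC100848941 and EPGN (0.974, 0.969 and 0.959), which dropped to 0.810, 0.727 and 0.743 over the 11 embryos without LY10 replicate 2. The points share libraries and depth.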

How the data were processed

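RNA of single blastocysts was prepared with a SMART-Seq kit and that of bESCs with a column kit, followed by poly-A selection. The deposited values are FPKM, and the authors' processing notes name HISAT2 2.0.5, StringTie 1.3.3b, featureCounts 1.5.0-p3 and DESeq2 1.20.0. The genome build is not given in the sources used here. FPKM times gene length fell on whole multiples of 1 step per library (100% of values within 0.02 reads), which gave reads and library sizes back. The authors' own fold changes and p-values were left unused. Normalized counts (reads over the authors' library size, times the geometric mean size of the table) were fitted as log2(value + 1) with limma 3.58.1 (R 4.3.3, eBayes with trend) for genes with a mean of at least 10, all groups of a table in 1 fit, with Benjamini-Hochberg adjustment over all tested genes. The code was tested on simulated data with 200 changed genes per comparison.

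The members and lists were chosen with earlier results of these data known. All members are named. From the other lists, at most 3 genes per direction past the threshold were named. Genes named beyond this rule (TRIM28, CTCF, MEG3, MEG8, NDN, MKRN3, INS, IGF1, IGF1R, the SNRPN neighbours and genes low in 1 blastocyst) were chosen after their values were seen. Tables were normalized separately, so no test crosses them. The labels do not say whether replicates are separate cultures, so p-values measure the spread between these samples. Intervals and floors cover counting error only.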

Additional observations from a re-analysis of the deposited data

Results flagged for a closer look

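COPG2, which overlaps MEST on the other strand, moved in opposite directions in the 2 experiments with LY from the 2-cell stage, with no overlap of the replicates in either. It was higher in LY10 than in DMSO (log2 fold change 0.67) and lower in cell2_LY than in LY_DMSO (-1.03). CTCF, the insulator protein of the IGF2 and H19 region, did the same with smaller changes (0.54 in LY10 and -0.34 in cell2_LY). Of all tested genes, 13.8% were higher in LY10 without overlap and 26.9% lower in cell2_LY without overlap. Of these changes only that of COPG2 in cell2_LY passed the threshold. These differences between experiments were not tested.

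Between the start stages of LY, COPG2 (1.12, higher from the 16-cell stage), ZFP57 (-1.27) and ZNF445 (-1.24) passed the threshold by limma, as did 11.3% of all tested genes, and none had an adjusted p below 0.05. Without 1 library at a time the log2 fold changes ranged from 0.76 to 1.48 for COPG2, which missed the threshold without cell16_LY replicate 1 or cell2_LY replicate 2, from -1.58 to -0.90 for ZNF445 and from -1.36 to -1.18 for ZFP57. No member passed the threshold between the start stages.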

How the results depend on the processing

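In LY10 against DMSO, the 2 members past the threshold became 1 with a pseudocount of 0.5 or quantile normalization, 0 at a mean of at least 50 (which leaves out MEST and NNAT) and 5 in libraries with no Y-linked reads. The other imprinted genes went from 2 to 1 at a mean of at least 50, on log2(FPKM + 1) or with voom, and to 4 without Y-linked reads. IGF2R turned to -0.018 with quantile normalization and -0.15 without Y-linked reads, and GRB10 to -0.0035 (quantile), -0.0044 (voom) and -0.38.

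In cell2_LY against LY_DMSO, the 3 members became 1 with no filter, a mean of at least 50, quantile normalization or the replicate block, and 0 on log2(FPKM + 1), with voom or with the Y-linked term, under which NNAT turned to 0.27. The 2 other imprinted genes became 1 at a mean of at least 50 or in a fit of only these groups, 4 with reads on genes as library size and 0 on log2(FPKM + 1) or with the Y-linked term. In cell16_LY against LY_DMSO, 0 members became 1 with a pseudocount of 5, quantile normalization or the Y-linked term, and 2 other imprinted genes became 1 with no filter, a mean of at least 50, reads on genes, log2(FPKM + 1), voom or the Y-linked term. Between the start stages, the 1 other imprinted gene became 2 with no filter or only these groups and 0 with reads on genes or log2(FPKM + 1), MEST turned to -0.013, -0.095 and -0.66 with reads on genes, quantile normalization and the Y-linked term, and NNAT to -0.76 with the last. In bESCs, 1 other imprinted gene passed with no filter. The causes were not tested. Beyond the main fit, the share of all tested genes past the threshold is given only by Y-linked reads, for LY10 (21.4%) and cell2_LY (13.6%). The other counts of this section, also those without 1 library at a time, have no such background beside them. The analyses by Y-linked reads and the crossed pairing were chosen after seeing the data.

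The labels do not say whether libraries of the same number belong together, and the main fit holds no term for the number. Same-numbered libraries deviated with correlations of -0.117, 0.168 and -0.0997 in the first table, 0.789 in bESCs, and 0.121, -0.133 and -0.232 in the second. With 2 libraries per group, both same-number pairs give the same value and unlike numbers its negative, by arithmetic. The bESC value and each value of the second table thus stand for 1 comparison, not for separate pairs. With the replicate block 1 other imprinted gene passed in bESCs. With the 16-cell numbers exchanged in the block, 2 members passed in cell16_LY against LY_DMSO and 2 other imprinted genes between the start stages. The share of all tested genes past the threshold under these blocks is not given here, so these counts have no background beside them.

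Without 1 library at a time, members past the threshold numbered 1 to 3 (LY10), 0 to 3 (cell2_LY), 0 to 1 (cell16_LY), 0 to 1 (start stages) and 0 to 1 (bESCs), and other imprinted genes 0 to 4, 1 to 7, 0 to 5, 0 to 3 and 0 to 0. Directions turned in LY10 for IGF2R (-0.18 to 0.24), SNRPN (-4.47 to 0.34) and GRB10 (-0.19 to 0.19), and in cell2_LY for NNAT (-2.19 to 0.45). In cell16_LY they turned for IGF2R (-0.070 to 0.33), NNAT (-1.80 to 0.84), SNRPN (-0.45 to 0.00068) and GRB10 (-0.12 to 0.42), and between the start stages for NNAT (-0.58 to 1.35), MEST (-0.96 to 1.29) and PEG3 (-1.06 to 0.27). In bESCs they turned for SNRPN (-0.27 to 0.38), NNAT (-0.69 to 0.57), MEST (-2.03 to 0.92), PEG10 (-0.16 to 0.31), GRB10 (-0.12 to 0.31), PLAGL1 (-0.90 to 0.81), PEG3 (-1.18 to 1.51) and IGF2R (-0.20 to 0.24).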
